A study of Mus musculus with 9 samples.

Results

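A group of 10 genes that move cholesterol out of brain cells, carry it between them or convert it was examined in the medial prefrontal cortex: Abca1, Abcg1, Apoe, Lpl, Nr1h2, Nr1h3, Npc1, Npc2, Soat1 and Cyp46a1. They were chosen by gene symbol, and all 10 were found among the 24532 genes listed for every mouse. RNA was sequenced from 9 male mice, which the labels give as C57BL/6 and 11 weeks old and the study's methods as C57BL/6J, with 1 library per mouse and 3 mice in each of 3 groups. CT mice were wild-type and unstressed, WT_ST mice were wild-type and underwent chronic restraint stress, and KO_ST mice were Fkbp5-/- and underwent the same stress. Per the study's methods, the Fkbp5-/- line had been backcrossed to C57BL/6J and was bred from heterozygous parents, and CT mice went without food and water during the restraint hours. There was no unstressed Fkbp5-/- group, so KO_ST differs from CT in both genotype and stress, and those cannot be told apart.

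The adult brain makes its own cholesterol, because lipoproteins of the blood do not cross the blood-brain barrier. Astrocytes load it onto apolipoprotein E through the ABC transporters, under the control of the liver X receptors (LXRs), and neurons take up these particles through receptors at their surface. Neurons dispose of surplus cholesterol by converting it to 24S-hydroxycholesterol, which leaves the brain and also activates the LXRs.

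Abca1, a textbook LXR target, is shown by pieces of its promoter, since it was the member for which every stressed mouse was below every CT mouse. The motifs were searched in the 250 bases before a RefSeq start site, a window at chr4:53159896-53160145 of GRCm38.p6, on whose minus strand the gene is read. A match to the LXR direct repeat, searched as the half-sites GGTNA and GGTCA in one direction with 5 bases between them, lay 67 to 53 bases upstream on the opposite strand. An E-box (CACGTG) lay 147 to 142 bases upstream. The RefSeq gene reaches 93 bases further upstream than this start site and so takes in the repeat. Printed from RefSeq along the minus strand, with the match in capitals, are the 157 bases before the whole gene (chr4:53159989-53160145), which hold the E-box, and 30 bases around the repeat (chr4:53159940-53159969).
Abca1 before the gene: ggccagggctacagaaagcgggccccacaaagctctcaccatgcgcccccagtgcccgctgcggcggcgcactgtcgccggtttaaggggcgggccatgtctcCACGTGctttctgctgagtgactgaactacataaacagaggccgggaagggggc
Abca1 around the repeat: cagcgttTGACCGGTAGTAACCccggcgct
The motifs were searched on both strands in 32851 promoter windows of this length. The LXR repeat was found in 0.177% of them and the E-box in 6.02%. Windows were given for 7 of the 10 members, not for Abcg1, Lpl and Npc1, and among these 7 each of these motifs was found in Abca1 alone. Among 47 other genes of cholesterol handling with a window, the repeat was found in Srebf1, the E-box in 8 and the sterol regulatory element described next in 2 (Abca3 and Stard3). A sterol regulatory element, spelled TCAC and CCAC with 1 base between them, was in 1.05% of all windows and a glucocorticoid response element, spelled GNACA and TGTNC with 3 bases between them, in 0.387%, and neither was in the windows of these 7 members. These matches are matches of letters and were not tested as binding sites.

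The libraries held 43778471 to 61150128 reads on genes. Fkbp5, the targeted gene, had an FPKM (fragments counted on the gene, scaled for transcript length and library size) of 6.46 to 7.61 in CT, 9.47 to 10.3 in WT_ST and 3.59 to 4.69 in KO_ST. For KO_ST against WT_ST this came to a log2 fold change of -1.04 (limma, adjusted p = 0.00908). Between 625 and 907 reads per mouse were still counted on Fkbp5 in KO_ST, and since the values are per gene, the deleted part was not examined. Markers of cortical excitatory neurons summed to an FPKM of 758 to 866 per mouse, of which Slc17a7 held 581 to 677. The 5 markers of choroid plexus each stayed under an FPKM of 1 in every mouse. The 5 striatal neuron markers summed to 38.5 to 49.7 in CT, 48.6 to 58.7 in WT_ST and 40.5 to 50.4 in KO_ST, and all 5 had a higher mean in WT_ST than in CT. The 5 markers of meningeal fibroblasts summed to 4.23 to 13.7 per mouse, and the groups overlapped. The part of such neighbouring tissue in the results was not tested.

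Levels differed widely between the members. Apoe was highest, with a mean FPKM of 748 over the 9 mice, followed by Cyp46a1 at 122 and Nr1h2 at 21.1. Abcg1 (13.96), Npc1 (13.7) and Npc2 (11.98) came next, and the ranges of neighbours in this order overlapped. Lpl (4.45), Soat1 (2.78) and Abca1 (2.54) overlapped likewise, and Nr1h3 was lowest at 1.21. The lowest read count behind any of these levels was 75, for Nr1h3.

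**Figure D1:**
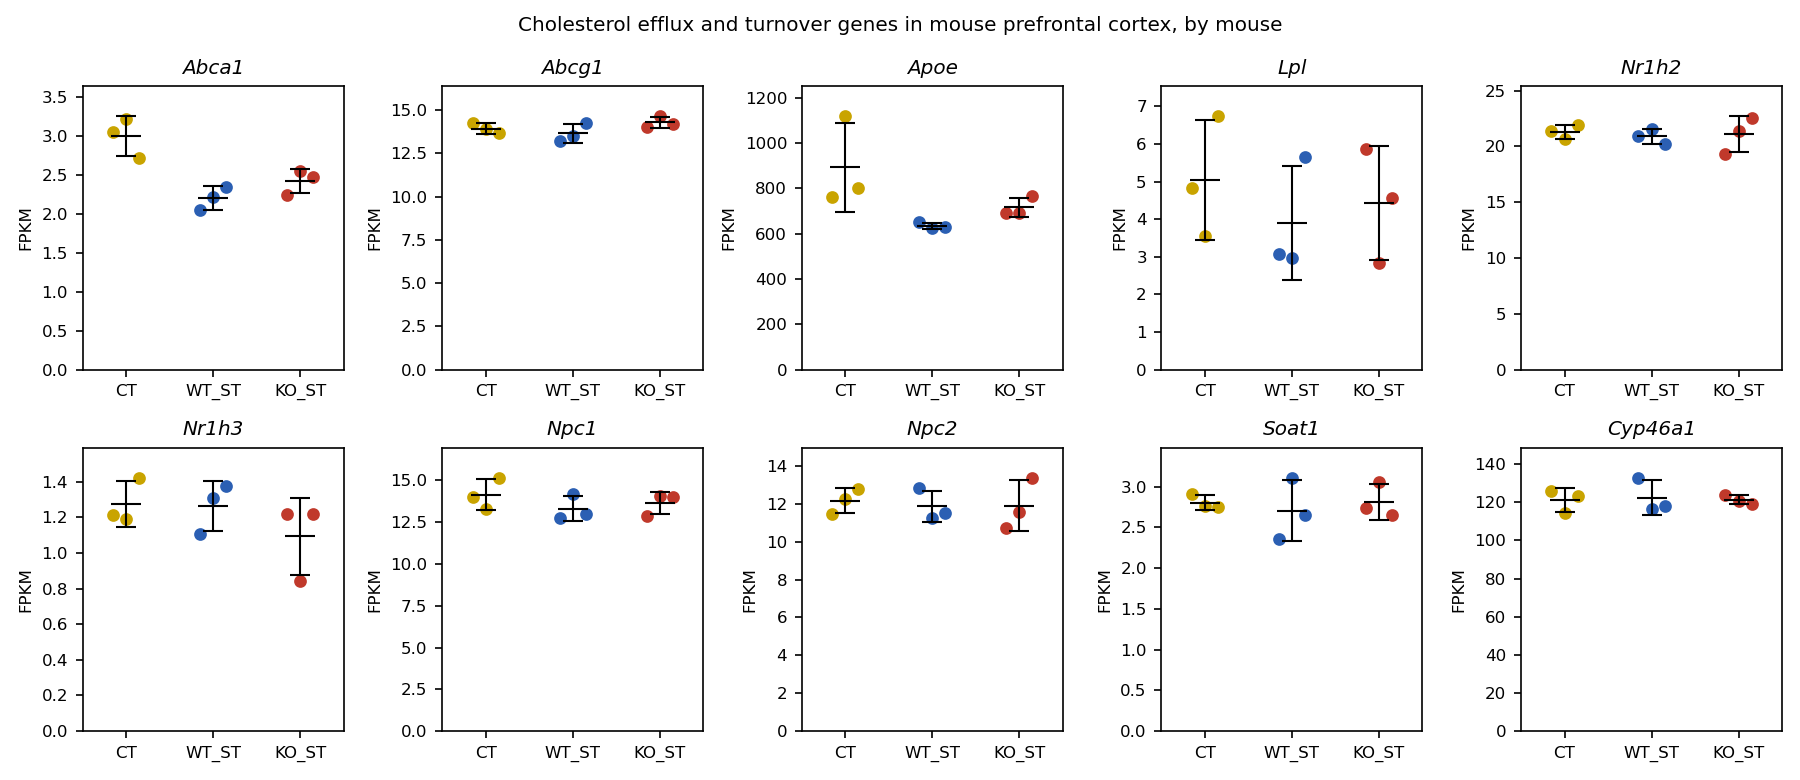
FPKM of each gene (vertical axis, from 0) in every mouse of CT, WT_ST and KO_ST (horizontal axis), with each point 1 mouse and bars giving the mean ± SD (n = 3). Abca1 lies between 2.04 and 2.54 in all stressed mice, below the CT mice at 2.72 to 3.22, while Apoe of WT_ST lies below CT and Cyp46a1 differs little among groups.

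Differences between groups were tested with limma on quantile-normalized log2(FPKM + 1) over the 14370 genes with a mean of 30 reads or more, and all 10 members were among them. A gene was called at an unadjusted p under 0.05 together with a fold change above 1.2, and p-values adjusted over all tested genes are given beside. Each pairwise limma p sets a difference of means against the spread between 3 mice per group, moderated towards that of the other genes. In bulk tissue, fewer cells of a type and less RNA per cell cannot be told apart.

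WT_ST against CT asks what stress changed in wild-type mice. Abca1 and Apoe fell, and the other 8 members were not called. The 2 of 10 members called were both lower, where 2.47% of all genes were called and 1.32% were called lower. The median log2 fold change was -0.03 over the members and 0.0034 over all genes. Neither call held after adjustment in limma, in which 5 of all genes (0.0348%) had an adjusted p under 0.05.

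Abca1 encodes the transporter that hands cholesterol and phospholipid to lipid-poor apolipoproteins and lies on chromosome 4 (53030789 to 53159988). Its FPKM was 3.05, 3.22 and 2.72 in the CT mice, 2.04, 2.22 and 2.35 in WT_ST and 2.24, 2.54 and 2.47 in KO_ST. Every CT mouse was above every stressed mouse, and the stressed groups overlapped each other. The FPKM averaged 2.998 ± 0.255 (SD, n = 3) in CT and 2.20 ± 0.152 (SD, n = 3) in WT_ST, a difference of -26.4%. On the log2(FPKM + 1) scale, which understates changes at this level, the fold change was -0.29 (SE 0.0804, 95% interval -0.48 to -0.10, limma adjusted p = 0.630). On the read counts it was -0.44 by edgeR (adjusted p = 0.507) and by DESeq2 (adjusted p = 0.0124). DESeq2 gave an adjusted p under 0.05 for 72 of all genes (0.501%), against limma's 5. The limma fold change came to -0.24 without CT replicate 2 and -0.26 without WT_ST replicate 1, under the fold needed for the call.

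Abcg1, whose product exports cholesterol to particles that already carry lipid, had FPKM values of 14.3, 13.9 and 13.6 in CT. They were 13.2, 13.5 and 14.3 in WT_ST and 13.99, 14.6 and 14.2 in KO_ST, so all 3 groups overlapped. The log2 fold change in WT_ST against CT was -0.01 (95% interval -0.14 to 0.11, limma). The gene lies on chromosome 17 (31057694 to 31117984), 2.57 Mb from Fkbp5.

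Apoe encodes the main apolipoprotein of the brain and lies on chromosome 7 (19696244 to 19701310). Its FPKM was 762, 1118 and 800 in CT, 650, 627 and 628 in WT_ST and 690, 693 and 766 in KO_ST. All WT_ST mice were below all CT mice, and CT replicate 2 stood above the other CT mice. The FPKM averaged 893 ± 196 (SD, n = 3) in CT and 635 ± 13.1 (SD, n = 3) in WT_ST, a difference of -28.9%. The log2 fold change was -0.55 (SE 0.178, 95% interval -0.97 to -0.13, limma adjusted p = 0.634). Without CT replicate 2 it was -0.31 and without CT replicate 1 it was -0.67, both still called. DESeq2 on the read counts gave -0.49 (adjusted p = 0.0567).

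Abca1 and Apoe were the only members whose FPKM did not overlap between WT_ST and CT, both lower in WT_ST, where 7.95% of all genes were apart and lower. Over the 9 mice, in the same values and so not as separate evidence, their profiles were the most alike of the 45 pairs of members. Their distance (root mean square of standardized values, 0 for identical profiles) was 0.527, against a median of 1.42 from Abca1 to all genes. However, 41 genes were nearer to Abca1 than Apoe was, led by Ddx26b at 0.291 and Armc5 at 0.346. The nearest profiles to Apoe were Sepw1 at 0.247 and Vasp at 0.262. For the export and lipase genes the nearest were Fam214a to Abcg1 at 0.317 and BC031181 to Lpl at 0.378. For the receptors they were Ly6a to Nr1h2 at 0.337 and Slc7a1 to Nr1h3 at 0.302. For the remaining members they were Snora65 to Npc1 at 0.332, Haus2 to Npc2 at 0.225, BC055324 to Soat1 at 0.260 and Bbs10 to Cyp46a1 at 0.366.

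Lpl encodes lipoprotein lipase, which frees fatty acids from lipoproteins. Its FPKM was 4.82, 3.55 and 6.73 in CT, 3.08, 2.96 and 5.66 in WT_ST and 5.86, 2.85 and 4.57 in KO_ST. It varied most among members, 2.36-fold between the highest and lowest mouse, and every group held both low and high mice. The log2 fold change in WT_ST against CT was -0.29 (95% interval -0.87 to 0.29, limma), an interval that holds changes larger than that of Abca1. Leaving out 1 mouse moved it from -0.10 without CT replicate 3, -0.15 without WT_ST replicate 2 and -0.19 without WT_ST replicate 1 to -0.47 without CT replicate 2 and -0.53 without WT_ST replicate 3. Lpl was called by limma in the last of these fits alone.

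The LXR genes were not called. Nr1h2 (LXRβ) had FPKM values of 21.4, 20.7 and 21.9 in CT, 20.9, 21.6 and 20.2 in WT_ST and 19.3, 21.4 and 22.5 in KO_ST. Nr1h3 (LXRα) was measured at 1.21, 1.19 and 1.42 in CT, 1.11, 1.31 and 1.37 in WT_ST and 1.22, 0.845 and 1.22 in KO_ST. KO_ST replicate 2 was the lowest mouse for Nr1h3, and the groups overlapped for both genes. In WT_ST against CT, the limma 95% interval of the log2 fold change was -0.14 to 0.08 for Nr1h2 and -0.15 to 0.18 for Nr1h3. At the low level of Nr1h3 the log2(FPKM + 1) scale understates changes, so its interval is not comparable to that of Nr1h2.

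Npc1 and Npc2 encode the membrane and luminal proteins that pass cholesterol out of late endosomes and lysosomes. Npc1 had FPKM values of 13.996, 13.3 and 15.2 in CT, 12.7, 14.2 and 12.99 in WT_ST and 12.9, 14.1 and 13.98 in KO_ST. Npc2 was measured at 11.5, 12.3 and 12.8 in CT, 12.8, 11.3 and 11.5 in WT_ST and 10.7, 11.6 and 13.4 in KO_ST. The groups overlapped for both, and in WT_ST against CT the log2 fold changes were -0.07 (95% interval -0.23 to 0.09) for Npc1 and -0.02 (95% interval -0.18 to 0.14) for Npc2 by limma.

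Soat1 encodes the enzyme that esterifies cholesterol for storage. Its FPKM was 2.91, 2.76 and 2.75 in CT, 2.36, 3.11 and 2.66 in WT_ST and 2.74, 3.06 and 2.65 in KO_ST, with WT_ST spanning both ends. Cyp46a1 encodes the neuronal cholesterol 24-hydroxylase. Its FPKM was 126, 114 and 123 in CT, 133, 116 and 118 in WT_ST and 124, 121 and 119 in KO_ST. The groups overlapped for both, and the log2 fold change in WT_ST against CT was -0.01 (95% interval -0.20 to 0.18) for Soat1 and 0.02 (95% interval -0.12 to 0.15) for Cyp46a1 by limma.

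KO_ST against CT compares stressed knockout with unstressed wild-type mice and uses the same CT mice as the comparison above. By limma, 0 of 10 members were called, where 3.56% of all genes were called. An unadjusted p under 0.05 was reached by 0 members and by 9.46% of all genes. On the read counts edgeR called Abca1, where it called 4.63% of all genes, and DESeq2 called Abca1 and Apoe, where it called 5.14%. Abca1 averaged an FPKM of 2.42 ± 0.159 (SD, n = 3) in KO_ST, with all mice below CT, where 10.6% of all genes were apart and lower. Its log2 fold change was -0.19 (SE 0.0826, 95% interval -0.38 to 0.0066, limma adjusted p = 0.539), and on the read counts it was -0.29 by edgeR (adjusted p = 0.513) and by DESeq2 (adjusted p = 0.218). Apoe averaged 716 ± 43.0 FPKM (SD, n = 3), KO_ST and CT overlapped, and the log2 fold change was -0.36 (95% interval -0.79 to 0.07, limma adjusted p = 0.568). It was called without CT replicate 1, at -0.48, and came to -0.13 without CT replicate 2. Among the other members log2 fold changes lay between -0.13 for Lpl and 0.06 for Abcg1, and the median over the 10 members was -0.01.

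KO_ST against WT_ST asks what the genotype changed among stressed mice. By limma, 0 of 10 members were called, where 2% of all genes were called, and by edgeR and DESeq2 likewise 0, where these called 2.96% and 2.85% of all genes. Apoe was the 1 member with an unadjusted p under 0.05, where 5.82% of all genes had one. All KO_ST mice were above all WT_ST mice for it, as 4.29% of all genes were. Its log2 fold change was 0.19 (SE 0.0482, 95% interval 0.07 to 0.30, limma adjusted p = 0.670), a 1.14-fold difference that is under the fold needed for the call. For Abca1 the log2 fold change was 0.10 (95% interval -0.06 to 0.26), for Nr1h3 it was -0.12 and for Cyp46a1 it was -0.0033, by limma. The median over the 10 members was 0.05, and over all genes it was -0.0015.

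**Figure D2:**
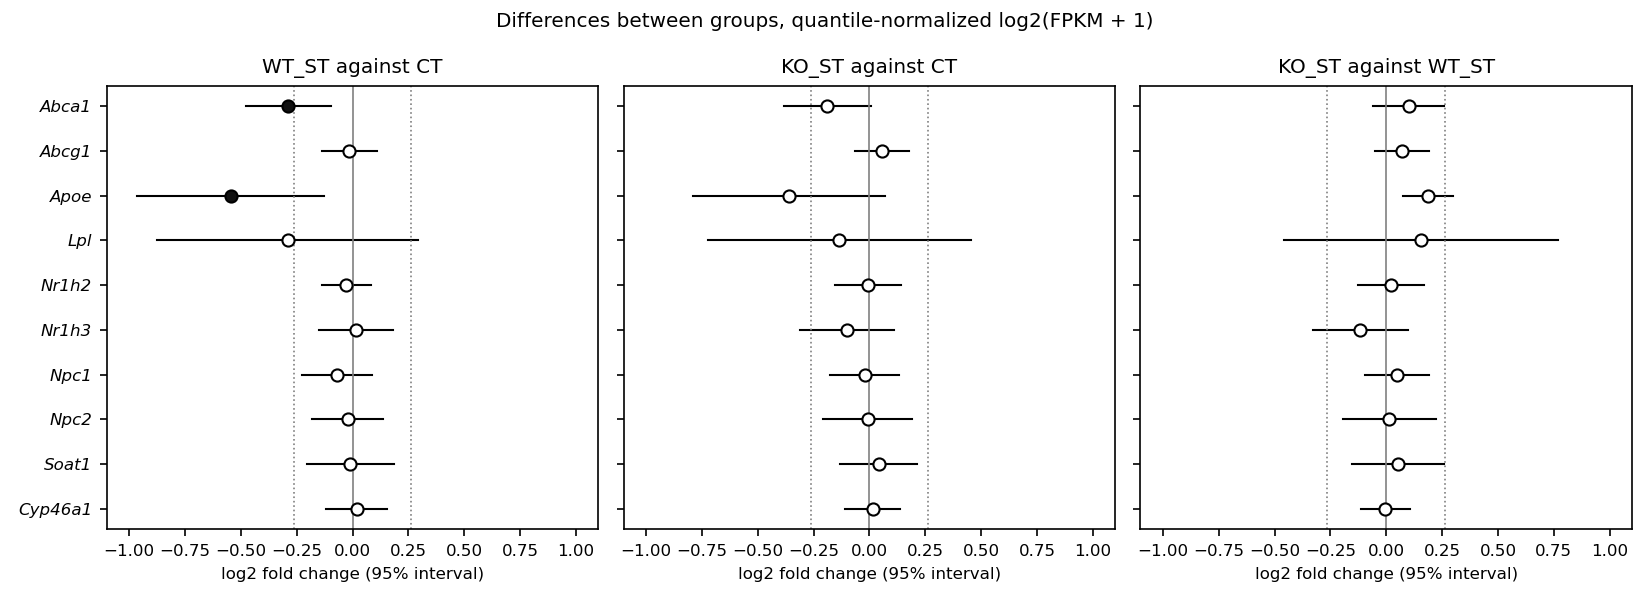
Log2 fold change (horizontal axis) of each gene (vertical axis) for WT_ST against CT, KO_ST against CT and KO_ST against WT_ST, with bars for the limma 95% interval, dotted lines at a 1.2-fold change and filled points for called genes. The filled points are Abca1 at -0.29 and Apoe at -0.55 in WT_ST against CT, and the interval of Lpl is the widest in each panel.

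Over all 3 groups, limma's F-test gave an unadjusted p under 0.05 for Abca1 (F = 7.62, adjusted p = 0.450) and Apoe (F = 6.01, adjusted p = 0.487), where 9.13% of all genes passed. All 6 stressed mice were below all 3 CT mice for Abca1 alone among the members, where 3.53% of all genes were below and 2.01% above.

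Astrocytes and microglia are the main sources of Abca1 and Apoe RNA in the brain. Their markers are given here beside both genes, without a test. The 8 astrocyte markers summed to an FPKM of 768 to 833 in CT, 690 to 725 in WT_ST and 704 to 811 in KO_ST, and 5 of 8 had a lower mean in each stressed group than in CT, while Aldh1l1, Gfap and S100b had a higher one. The WT_ST sums were below CT, and the KO_ST sums overlapped both other groups. For the 8 microglia markers the sum was 171 to 216 in CT, 137 to 154 in WT_ST and 78.4 to 166 in KO_ST, with a lower mean for all 8 in each stressed group. The 8 neuron markers summed to 2202 to 2650 in CT and 2715 to 2918 in the stressed mice, and all 8 had a higher mean in each stressed group. The 3 markers of oligodendrocyte precursors were lower in each stressed group as well, summing to 20.6 to 26.6 in CT and 16.5 to 20.5 in the stressed mice. The neuron sum was led by Snap25 (987 to 1485 FPKM per mouse). The astrocyte sum was led by Aldoc (245 to 294), Slc1a2 (204 to 256) and Slc1a3 (105 to 149). None of the markers in these lists was without reads in all mice. The part of cell composition in the lower Abca1 and Apoe was not tested.

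Levels were also set against these sums, a ratio chosen after the values were seen. Abca1 per 1000 FPKM of astrocyte markers was 3.98, 4.11 and 3.26 in CT, 2.96, 3.06 and 3.38 in WT_ST and 3.18, 3.61 and 3.05 in KO_ST. CT replicate 3 was then within the range of both stressed groups, so these groups overlapped. The mean was 3.78 ± 0.455 (SD, n = 3) in CT, 3.14 ± 0.221 (SD, n = 3) in WT_ST and 3.28 ± 0.295 (SD, n = 3) in KO_ST, and the overlap with CT rested on CT replicate 3. Apoe per 1000 FPKM of astrocyte markers was 992, 1426 and 960 in CT and 942, 864 and 906 in WT_ST, with no overlap, and 978, 984 and 944 in KO_ST. The mean was 1126 ± 261 (SD, n = 3) in CT and 904 ± 39.0 (SD, n = 3) in WT_ST. The CT mean rested on CT replicate 2 at 1426, while the other CT mice, at 992 and 960, were close to the highest WT_ST mouse at 942. Per 1000 FPKM of microglia markers, Apoe was 4404, 6527 and 3704 in CT, 4228, 4428 and 4578 in WT_ST and 8796, 5798 and 4616 in KO_ST. CT overlapped both stressed groups, while all KO_ST mice were above all WT_ST mice. Abca1 per 1000 FPKM of microglia markers was 17.7, 18.8 and 12.6 in CT, 13.3, 15.7 and 17.1 in WT_ST and 28.6, 21.3 and 14.9 in KO_ST. For Abca1 all 3 groups overlapped, and the mean was 16.4 ± 3.30 (SD, n = 3) in CT, 15.4 ± 1.93 (SD, n = 3) in WT_ST and 21.6 ± 6.84 (SD, n = 3) in KO_ST, above CT.

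**Figure D3:**
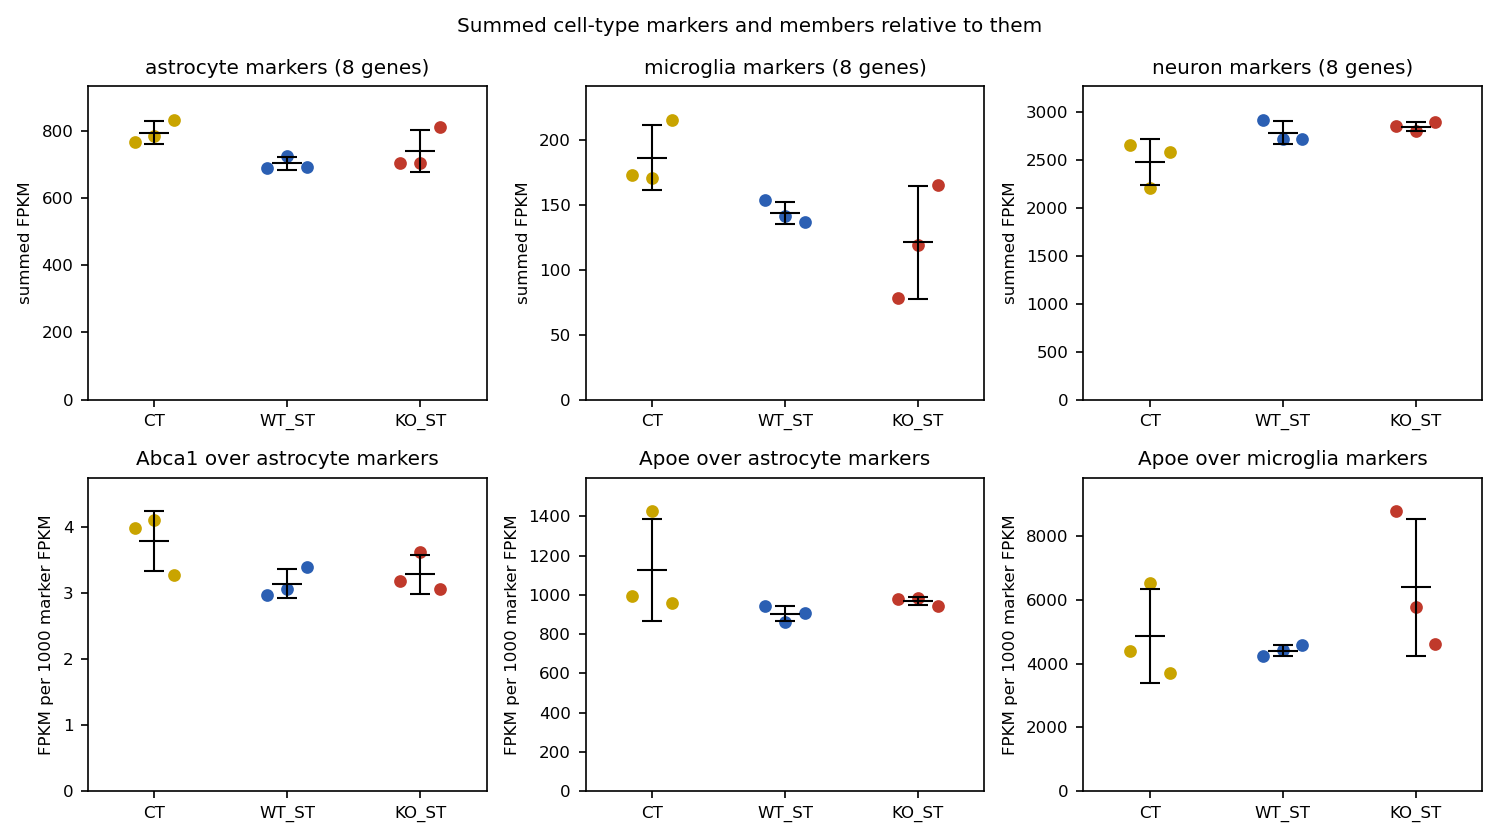
Summed FPKM of the astrocyte, microglia and neuron markers (top) and FPKM of Abca1 or Apoe per 1000 FPKM of markers (bottom), each vertical axis from 0, for every mouse by group, with the mean ± SD (n = 3). Astrocyte and microglia sums of WT_ST lie below CT, and Abca1 relative to astrocyte markers overlaps between CT (3.26 to 4.11) and WT_ST (2.96 to 3.38).

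Another 64 genes of cholesterol handling were listed by role, and 58 of them could be tested. In WT_ST against CT 2 of 58 were called, both higher, where 1.16% of all genes were called higher. Stard4, a cytosolic sterol carrier, was measured at 6.72, 5.41 and 6.86 in CT and 8.07, 8.47 and 8.57 in WT_ST (log2 fold change 0.38, limma adjusted p = 0.542). Lipg, endothelial lipase, had overlapping groups (log2 fold change 0.30, limma adjusted p = 0.635). By limma Stard4 was called whichever mouse was left out. Lipg was called without CT replicate 1 (0.43) and in none of the other fits that left out a mouse, with 0.20 without CT replicate 2. With all mice Lipg lost the call by edgeR and by limma without quantile normalization, and kept it by DESeq2. Stard4 is a textbook target of SREBP2, the factor that turns on cholesterol uptake and synthesis when sterol is low. The other groups of genes, which were export pumps (8 tested), apolipoproteins (4), lipoprotein receptors (8), LXR partners and targets (10), oxysterol enzymes (4), ester storage (3) and sterol sensing (4), held no called gene by limma. The median log2 fold change of the 58 genes was -0.0034 here and 0.0070 in KO_ST against CT, where over all genes it was 0.0034 and 0.0024.

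In KO_ST against CT, 4 of 58 were called, 2 higher and 2 lower, where 1.54% of all genes were called higher and 2.03% lower. Stard4 (8.38, 7.75 and 8.39 FPKM in KO_ST, log2 fold change 0.36, limma adjusted p = 0.458) and Insig1, which holds back SREBP maturation and is itself an SREBP target (25.5, 30.1 and 26.6 against 20.8, 17.0 and 25.0 in CT, log2 fold change 0.40, limma adjusted p = 0.499), rose. Stard4 did not overlap with CT in either stressed group. Clu, clusterin or apolipoprotein J, fell from 338, 388 and 363 FPKM in CT to 286, 313 and 304 (log2 fold change -0.29, limma adjusted p = 0.437). Per 1000 FPKM of astrocyte markers, Clu was at 436 to 495 in CT and 375 to 445 in KO_ST, which overlapped, and the part of cell composition in it was not tested. Lpcat3, an LXR target that remodels phospholipids, fell from 6.39, 6.66 and 7.23 FPKM in CT to 4.64, 5.61 and 5.39 (log2 fold change -0.29, limma adjusted p = 0.489). With a mouse left out, limma called Stard4 in every fit. Clu was not called without CT replicate 2 (-0.24), Lpcat3 without CT replicate 3 (-0.26) or KO_ST replicate 1 (-0.22) and Insig1 without KO_ST replicate 2 (0.33). On the read counts Clu came to -0.25 by edgeR and by DESeq2, under the fold needed for the call, while Stard4, Lpcat3 and Insig1 stayed called. In WT_ST against CT, Clu had a log2 fold change of -0.26 and just missed the fold needed for the call, Lpcat3 was at -0.17 and Insig1 at 0.29, and in KO_ST against CT Lipg was at 0.31, none of them called. Whether these genes differ between the stressed groups is given by the comparison of KO_ST with WT_ST. On the read counts DESeq2 gave an adjusted p of 0.0261 for Stard4 in WT_ST against CT and of 0.0394 in KO_ST against CT, where it gave one under 0.05 for 113 of all genes (0.786%) and limma for 9. In KO_ST against WT_ST limma called 0 of 58, 0 had an unadjusted p under 0.05, and edgeR and DESeq2 called 0.

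**Figure D4:**
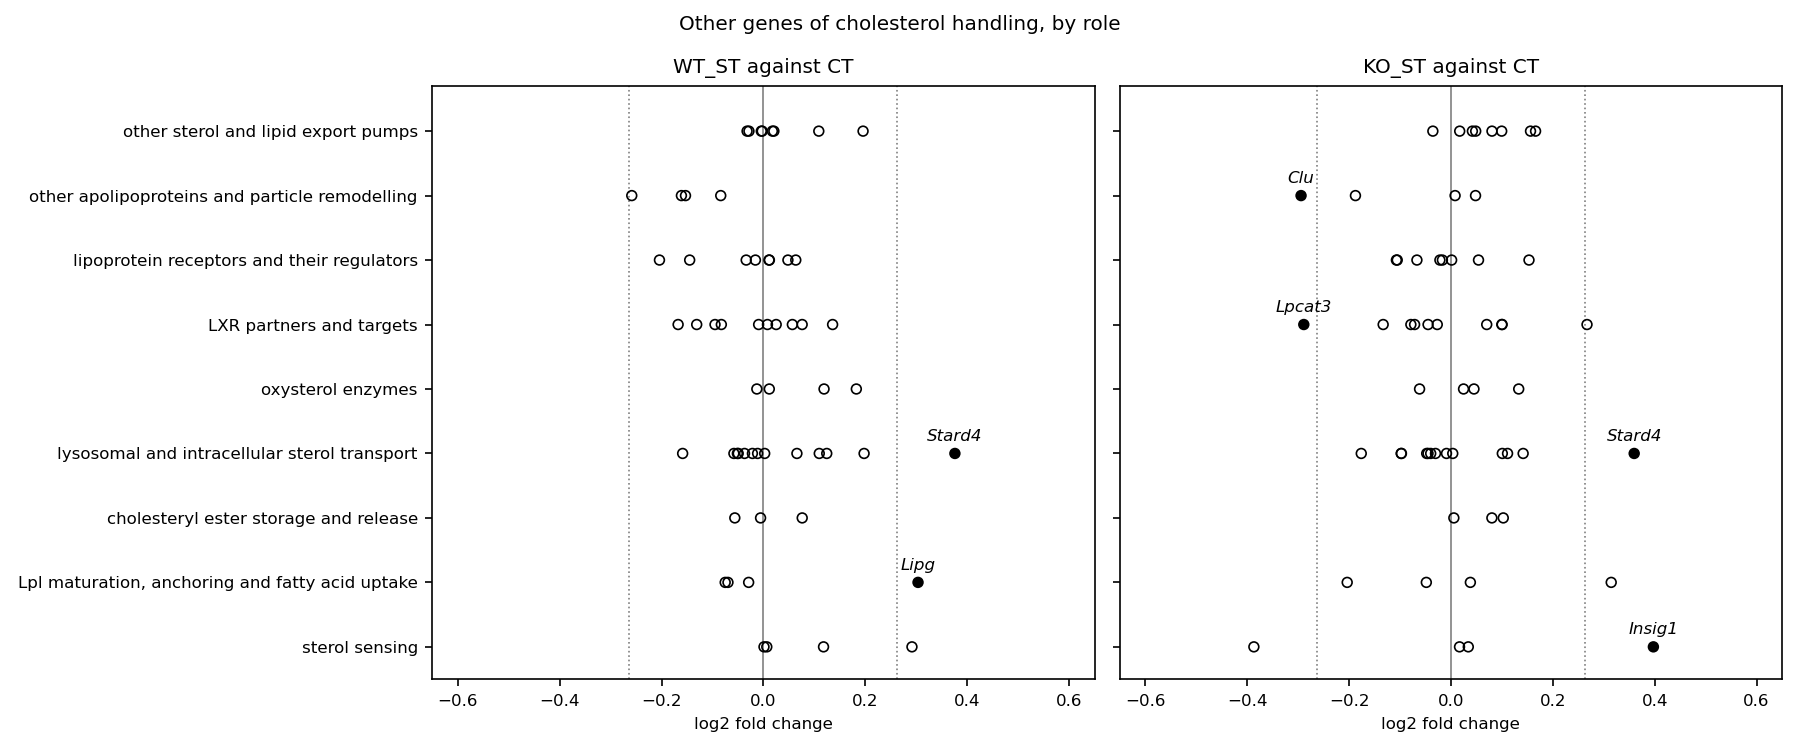
Log2 fold change (horizontal axis) of the 58 other tested genes of cholesterol handling by role (vertical axis) for WT_ST against CT and KO_ST against CT, with 1 point per gene, filled and named where called. Stard4 (0.38 and 0.36) is filled on the higher side in both panels, and Clu and Lpcat3 on the lower side in KO_ST against CT.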

How the data were processed

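Cortical RNA of 9 mice, 3 per group as the labels give them, was analysed. Per the labels and the study's methods, stranded poly(A) libraries were sequenced as paired ends and aligned to GRCm38 with HISAT2 2.1.0, and genes were quantified with StringTie 1.3.4d. The authors deposited raw read counts per gene without normalization. Beside them stand FPKM values that the authors computed per gene from transcript length and mapped reads. Depth ranged from 43778471 to 61150128 reads per mouse.

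A pseudocount of 1 was added to each FPKM, and the log2 values of all 24532 genes were quantile normalized. Genes averaging at least 30 reads were tested with limma 3.58.1 (moderated, mean-variance trend) in R 4.3.3 on the mice of both groups compared, with Benjamini-Hochberg adjustment, and with limma's F-test over all mice. edgeR 4.0.16 and DESeq2 1.42.0 on the counts, other filters, normalizations and pseudocounts, and leaving out each mouse were alternatives. The fits were tested on simulated data.

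The members and gene lists were chosen with earlier results of these data known. Named genes are Fkbp5, the members, called genes of the listed pathway and the nearest profiles of a member. A gene of the listed pathway is not reported here and was left out of the list. Other genes were named after their values were seen. Sequences and positions are from RefSeq (GRCm38.p6). Deviations of mice with the same replicate number correlated at a mean of -0.0101, and a block by number was therefore only an alternative. How reads of overlapping genes were divided is not given in the sources used here. Figures used matplotlib 3.10.9 in Python 3.11.15.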

Additional observations from a re-analysis of the deposited data

How the results depend on the processing

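Of the members called in WT_ST against CT, 1 of 2 kept the call with no filter on low values (Abca1), with a filter at a mean FPKM of 5 (Apoe, where Abca1 was not tested) and in an unmoderated test of each gene (Abca1). Abca1 stayed between -0.44 and -0.24 on the log2 scale and Apoe between -0.67 and -0.31, with adjusted p from 0.0124 to 0.915 and from 0.0567 to 0.856. In KO_ST against CT, 0 members became 1 by edgeR and 2 by DESeq2, and over all 3 groups 2 became 1 with no filter and with that of FPKM 5. Leaving out 1 mouse gave 1 to 3 members in WT_ST against CT, 0 to 1 in KO_ST against CT and 1 to 2 over all groups, where Apoe was lost without WT_ST replicate 1. The other genes of the pathway called in WT_ST against CT were 2, and 1 with the filter of FPKM 5, without quantile normalization and in the unmoderated test and 4 by DESeq2. Leaving out 1 mouse gave 1 to 5, then 3 to 5 in KO_ST against CT, 0 to 2 in KO_ST against WT_ST and 4 to 7 over all groups.

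Over all genes, 355 calls in WT_ST against CT became 544 with a pseudocount of 0.1, 174 with the filter of FPKM 5, 164 unmoderated, 535 by edgeR and 552 by DESeq2. The 512 in KO_ST against CT became 248 with that filter and 248 unmoderated, and the 287 in KO_ST against WT_ST became 445, 118 and 138 with the pseudocount, that filter and the unmoderated test. Over all 3 groups 1312 became 847 at that filter. Leaving out 1 mouse gave 277 to 542, 410 to 734, 245 to 477 and 938 to 1558. The share of calls that were higher in WT_ST was 46.8%, against 34.1% without quantile normalization, 33.1% by edgeR and 34.2% by DESeq2, and in KO_ST against CT 43.2%, against 28.5% without quantile normalization. The cause was not tested.

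With the replicate number as a block, 3 members were called in WT_ST against CT, Lpl being added at -0.29, and all genes called were 399, 562 and 279 in the 3 comparisons. No sign of pairing by number was seen, as 2 of 9 pairs with the same number correlated above 0.1. The mean correlation was -0.0101 with the same number and 0.0049 with different numbers. With 3 mice per group this cannot exclude a pairing.

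Changes of sign were seen in members that were not called. These were near 0 except Lpl, which varied most among the members. Nr1h3 in WT_ST against CT was -0.0079 without quantile normalization and -0.012 by edgeR and DESeq2. Nr1h2 in KO_ST against CT was 0.0061 by edgeR and 0.0052 by DESeq2. In KO_ST against WT_ST, Npc2 was -0.00072 without quantile normalization and Cyp46a1 was 0.0014 by DESeq2. Leaving out 1 mouse gave, in WT_ST against CT, -0.045 to 0.01005 for Abcg1, -0.017 to 0.057 for Nr1h3, -0.079 to 0.011 for Npc2, -0.0798 to 0.045 for Soat1 and -0.026 to 0.057 for Cyp46a1. It gave, in KO_ST against CT, -0.33 to 0.0904 for Lpl, -0.049 to 0.052 for Nr1h2, -0.062 to 0.024 for Npc1, -0.088 to 0.062 for Npc2, -0.0047 to 0.0797 for Soat1 and -0.028 to 0.054 for Cyp46a1. It gave, in KO_ST against WT_ST, -0.036 to 0.39 for Lpl, -0.021 to 0.0799 for Nr1h2, -0.066 to 0.084 for Npc2, -0.0027 to 0.12 for Soat1 and -0.036 to 0.04006 for Cyp46a1.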

Other observations

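Insig2, whose product retains SREBP in the endoplasmic reticulum, fell into a low and a high set of mice that crossed the groups. Its FPKM was 8.46, 17.4 and 17.5 in CT, 8.01, 17.3 and 18.2 in WT_ST and 7.04, 17.8 and 8.15 in KO_ST.

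Among the other genes of cholesterol handling, all 6 stressed mice were below all 3 CT mice for Clu, Rxra, Srebf1, Lpcat3, Gramd1a and Gramd1c, and above them for Stard4. Over all tested genes the shares were 3.53% and 2.01%. Srebf1, the LXR target whose promoter window also held the LXR repeat, was measured at 11.5, 11.6 and 11.9 FPKM in CT, 9.96, 10.8 and 10.7 in WT_ST and 11.2, 8.83 and 11.2 in KO_ST. Rxra, the partner with which LXRs bind DNA, was at 7.33, 7.12 and 7.03 FPKM in CT, 6.49, 6.94 and 6.44 in WT_ST and 6.39, 6.57 and 6.80 in KO_ST. By limma, neither was called in any comparison. Both belong to the 10 tested LXR partners and targets, of which 5 averaged higher and 5 lower in WT_ST against CT (median log2 fold change -0.00075), and 4 higher and 6 lower in KO_ST against CT (median -0.04).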
